A study of Homo sapiens with 8 samples.

Results

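The sgRNAs described here are those of the 12 long non-coding RNAs (lncRNAs) in the CRISPRi library that carry a RefSeq accession. They were found by the accession at the start of the target name, NR_ or XR_. Of 6862 sgRNAs and 957 targets in the count files, 96 sgRNAs and 12 targets met this rule. The 4 NR_ targets had 31 sgRNAs and the 8 XR_ targets had 65. Abundance was read as the count of each sgRNA in genomic DNA of SW620 cells, an established human colorectal cancer line that expressed a dCas9/KRAB fusion protein in all samples. There were 4 libraries of the starting pool (day0, labelled control, 0 days of culture) and 4 libraries after screening (day17 in the sample titles, 18 days in the cultured time). The methods describe infection at a low multiplicity in 4 separate experiments and puromycin selection, which both groups share. Total counts ranged from 3417248 to 3999875 per library, and RPM below is a count per 1000000 counts of its library. RefSeq sgRNAs held 1.43 to 1.48% of the counts at day0 and 1.44 to 1.46% at day17. The files hold no RNA measurement, so how far any of these transcripts was silenced, or whether SW620 cells express them, could not be checked here.

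RefSeq gives the prefix NR_ to curated non-coding transcripts and XR_ to transcripts predicted by a computed gene model. A non-coding RefSeq transcript can be a variant of a protein-coding gene, and can start at the same promoter. dCas9/KRAB acts on the promoter to which it is brought, so an sgRNA at a shared or divergent promoter can lower every transcript that starts there. In a growth screen the readout of such an sgRNA therefore belongs to a stretch of DNA, and not to one named transcript. For this reason the sgRNA sequences were searched, on both strands and with no mismatch, in the promoter windows of RefSeq genes (250 bases before to 50 after each start, GRCh38.p14).

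Of the 96 RefSeq sgRNAs, 16 matched a promoter window (16.7%), against 588 of all 6389 targeting sgRNAs (9.20%). They belonged to 5 of the 12 targets, and most of them to NR_073063.1 and XR_430451.1. The windows are those of RefSeq genes, so a RefSeq target can match the window of its own gene. YLQ3579 did so at BEAN1-AS1. YLQ5236 spans the start site of NR_033812.1 and that of CYP3A5, which are read from the same strand. YLQ1944 starts 2 bp downstream of the start site of NR_073063.1 and 4 bp downstream of that of C2, also read from the same strand. Whether these targets are transcripts of CYP3A5 and C2 was not tested. Such matches limit the comparison with all targeting sgRNAs. In all 16 the 3 bases that follow the match were NGG, the motif that Cas9 requires next to its site. The window search also showed 2 properties of the files. None of the 575 library sgRNAs with 1 matched place lay within 50 bases of its GRCh38 position, so the positions in the files are not in that build. They are given below only as distances from the start site (TSS) named in the files. Each distance was counted from the lowest position of the site. This is the upstream end for targets on the plus strand and the downstream end for those on the minus strand. The sequence of 557 of these 575 sgRNAs lay on the strand opposite to the one in the strand column of the files.

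Each matched site is shown with its 20 bases in lower case and the adjacent NGG in capitals, since these are the sites that tie a RefSeq target to a named gene. In NR_073063.1, the first 5 of 9 sgRNAs lay in the promoter window of EHMT2, and YLQ1943 and YLQ1944 lay in that of C2 as well. EHMT2 encodes the histone H3 lysine 9 methyltransferase G9a, and C2 encodes a protease of the complement system. Their positions were chr6:31897741-31897760, chr6:31897787-31897806, chr6:31897845-31897864, chr6:31897861-31897880 and chr6:31897884-31897903, the second on the minus strand and the others on the plus strand.
YLQ1943: agggcgaggaggagccttaaAGG
YLQ1944: aggccgctctcaggggaaaaTGG
YLQ1945: gggagaattcctgtcattccTGG
YLQ1946: ttcctggcctcagttctgcaGGG
YLQ1947: accgagggcgagacacgcctGGG

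EHMT2 is read from the minus strand and C2 from the plus strand, and their starts in the windows lie 85 bases apart. The stretch between them, chr6:31897699-31897782 in GRCh38.p14, is given on the plus strand with the site of YLQ1943 in capitals, since this sgRNA lies between both starts.
EHMT2 to C2: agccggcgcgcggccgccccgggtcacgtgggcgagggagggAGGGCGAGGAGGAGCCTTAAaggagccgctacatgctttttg

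In XR_430451.1, 6 of 8 sgRNAs lay within 177 bases upstream of the start of WBP2NL, which encodes a protein of the sperm head, between chr22:41998611-41998630 and chr22:41998738-41998757. Those of the most abundant sgRNA (YLQ2292) and of the highest (YLQ2295) and lowest (YLQ2296) well-counted ones, with at least 100 counts in every day0 library, are shown.
YLQ2292: cgcctctttctcccctttctCGG
YLQ2295: cgagaccgggtcacgtggtgGGG
YLQ2296: gagattatgacgtaaggaggAGG

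In XR_108432.1, YLQ7204 and YLQ7205 lay at chr2:221572478-221572497 and chr2:221572517-221572536, upstream of EPHA4, which encodes a receptor tyrosine kinase for ephrins. In NR_033812.1, YLQ5236 and YLQ5237 lay at chr7:99679985-99680004 and chr7:99680011-99680030, the former across the start of CYP3A5, a cytochrome P450 that oxidises drugs and steroids. In NR_109960.1, YLQ3579 lay at chr16:66476398-66476417, across the start of BEAN1-AS1.
YLQ7204: gcgcggtctcccggggctctAGG
YLQ7205: tccccgcccccgcctgccggAGG
YLQ5236: tgaagactgctgtgcagggcAGG
YLQ5237: ctgctgaaagatttatgtgcTGG
YLQ3579: gatactcagggtcacatacgTGG

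NR_109960.1 is the one accession that the RefSeq gene table lists in the same version, as the lncRNA BEAN1-AS1. XR_254376.1 is listed in a later version as the lncRNA LOC101929788. The other 10 accessions were not paired with a symbol and are named by accession, and the 7 targets with no matched sgRNA were not placed beside a gene. No RefSeq sgRNA shared its full sequence with another row of the library, but 16 pairs of sgRNAs of the same target had sites that share bases.

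Of 93 RefSeq sgRNAs that could be tested, 1 was depleted during the culture and none was enriched. Of the 96 sgRNAs, 93 had enough counts to be tested, 30 of NR_ and 63 of XR_ targets. Counts were compared by edgeR's quasi-likelihood test with adjustment over all 6587 tested sgRNAs of the library. At an adjusted p under 0.05, YLQ2055 of XR_242004.1 was called lower and no RefSeq sgRNA was called higher. Across the library 0.698% of tested sgRNAs were called lower and 0.0759% higher, so 1 of 93 (1.08%) is near the background. None of the 30 tested sgRNAs of NR_ targets was called. At an unadjusted p under 0.05, 7 of the 93 passed (7.53%), against 6.19% of all tested. These were YLQ2055, YLQ4619, YLQ5577 and YLQ7207, which were lower, and YLQ1431, YLQ2060 and YLQ2292, which were higher. DESeq2 called the same number, 1 lower and 0 higher, where its background was 1.14% and 0.273%. With a limit of 0.58 on the log2 fold change in addition to an unadjusted p under 0.05, YLQ2055 alone was lower and none was higher (background 1.56% and 0.622%). The two-tailed test of the study's methods, run on log2(RPM + 1) at these same limits and without adjustment, gave the same sgRNA and none higher (background 1.65% and 0.501%).

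The log2 fold changes (log2FC, day17 over day0) of the 93 sgRNAs centred on 0, with 45 below 0 (48.4%, background 47.2%) and 48 above. Their median was 0.0046, that of the other 6033 tested targeting sgRNAs was 0.011, and that of the 461 tested non-targeting sgRNAs was 0.0031. The SD was 0.28 over RefSeq, 0.32 over other targeting and 0.31 over non-targeting sgRNAs. Between the 2 kinds of accession, NR_ sgRNAs had a median of 0.04 (SD 0.30) and XR_ sgRNAs one of -0.0013 (SD 0.27), with a median day0 count of 180 and 507. These are descriptions of the pools, and sgRNAs of 1 target are not replicates. The 69 RefSeq sgRNAs with at least 100 counts in every day0 library had an SD of 0.17, against 0.47 for the 24 with fewer counts. Likewise the size of the fold change fell with the day0 count across the 93 sgRNAs (Spearman's rho -0.52, a description across sgRNAs that share the same 8 libraries), and rho was -0.52 over the other targeting sgRNAs too. All day17 libraries were lower than all day0 libraries for 4 of the 93 sgRNAs (4.30%, background 2.75%), namely YLQ2055, YLQ1947, YLQ4619 and YLQ1430, and also for the untested YLQ5234. No sgRNA was above in the same way (background 1.75%).

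YLQ2055 targets XR_242004.1 on chromosome 6, a predicted transcript with 9 sgRNAs. Its site starts 22 bp upstream of the TSS and ends before it. Its abundance was 163, 164, 150 and 172 RPM in replicates 1 to 4 at day0, and 96.0, 94.4, 88.2 and 122.0 RPM at day17. The 4 libraries after screening were all lower than the 4 before it, and the groups did not overlap. The mean went from 162 ± 9.11 to 100.2 ± 15.0 RPM (mean ± SD of 4 libraries), a log2FC of -0.68 (standard error 0.13, edgeR adjusted p = 8.5e-04), or 0.622 of the starting level. The exact permutation test over the libraries gave p = 0.0286 (two-sided), the smallest p that 4 against 4 libraries allow. The call held in each edgeR fit that left out 1 library (log2FC -0.79 to -0.63), and in the two-tailed test on log2(RPM + 1) the log2FC was -0.70. That test did not pass once its p values were adjusted over all tested sgRNAs (Benjamini-Hochberg adjusted p = 0.135), a step that is not part of the study's thresholds.

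The nearest site of the same target, that of YLQ2056, starts 11 bp upstream and spans the TSS. It overlaps the site of YLQ2055 on the same strand. Both are shown with the 9 shared bases in capitals, since they differ in response.
YLQ2056: atggtgcccacATTTCAGCG
YLQ2055: ATTTCAGCGcgggtggggag

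YLQ2056 was at 177, 170, 167 and 185 RPM at day0 and at 201, 146, 139 and 155 RPM at day17. Its libraries overlapped between the groups, with a log2FC of -0.11 (95% interval -0.34 to 0.12). Within a library, the count of YLQ2055 over that of YLQ2056 was 0.928 ± 0.029 at day0 and 0.636 ± 0.127 at day17 (mean ± SD of 4 libraries; two-sided exact permutation p = 0.0286, the smallest possible). This ratio does not depend on scaling, and the pair was chosen after its values were seen. The last 12 bases of YLQ2055 followed by NGG, GCGGGTGGGGAG and then NGG, occur on either strand in 11 of 35116 promoter windows (0.0313%), the highest number among the 96 RefSeq sgRNAs. Those windows belong to PODN, LOC124904411, GPR161, ANKRD53 (2 windows that overlap), MAPK9, CAP2, PALM2AKAP2, LINC02205, MATN4 and RHOXF1. For YLQ2056 the number was 0, and the median over the RefSeq sgRNAs was 0. The next highest were YLQ2294 with 7 windows (log2FC 0.10), YLQ5236 with 6 (-0.22) and YLQ4622 with 5 (-0.10), none of them called. Whether any of these windows is bound was not tested.

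The other 8 sgRNAs of XR_242004.1 spread from -0.999 to 0.19 on the log2 scale, and none was called. YLQ2060, 128 bp downstream, is the most abundant and held 28.5% of the target's starting abundance. It was at 839, 801, 903 and 983 RPM at day0 and at 1017, 899, 1057 and 1006 RPM at day17. The groups overlapped, since replicates 3 and 4 at day0 lay above replicate 2 at day17. Its log2FC was 0.19 (standard error 0.06), and the adjusted p from edgeR was 0.198. With the replicate number as a block its adjusted p from edgeR was 0.0410, and it was 0.0322 without day0 replicate 4 and 0.0463 without day17 replicate 2. The lowest value, -0.999 for YLQ2061, came from 12 to 35 counts per library at day0 and 4 to 17 at day17, with a standard error of 0.66. Summed over its 9 sgRNAs, XR_242004.1 went from 3091 ± 135 to 3064 ± 62 RPM (mean ± SD of 4 libraries), with a log2FC of -0.00095 (standard error 0.03, edgeR adjusted p = 0.991). Without YLQ2055, the median over the other 8 sgRNAs was -0.12.

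For each target the counts of its tested sgRNAs were summed per library and tested over all 869 targets with at least 2 tested sgRNAs. None of the 12 RefSeq targets was called lower or higher by edgeR, where the background was 0.921% lower and 0.0% higher. At an unadjusted p under 0.05, 2 of the 12 passed, XR_108432.1 and XR_430451.1 (background 8.52%). DESeq2 called 1 of the 12, XR_108432.1 (background 2.42%). The log2FC values of the sums lay between -0.10 and 0.08. The widest bounds of their 95% intervals were changes of -10.9% (NR_073063.1) and 15.8% (XR_430422.1). A sum is weighted to the abundant sgRNAs, since the most abundant one held 26.7% (NR_073063.1) to 45.0% (NR_109960.1) of a target. The mean of log2(RPM + 1) over the sgRNAs of a target, which weights them equally, also gave no call (limma). Its lowest values were -0.24 for NR_073063.1 (adjusted p = 0.330) and -0.22 for XR_242004.1 (adjusted p = 0.277).

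XR_108432.1, next to EPHA4 on chromosome 2, had the lowest log2FC of the 12 sums. Its sum was at 1713, 1723, 1748 and 1728 RPM at day0 and at 1600, 1648, 1549 and 1622 RPM at day17. All 4 sums at day17 were lower than all 4 at day0, which was so for 1 of the 12 targets (background 2.88%), while no RefSeq target was above in this way (background 2.07%). The log2FC was -0.10 (standard error 0.04, edgeR adjusted p = 0.338), or 0.936 of the starting level, and with DESeq2 the adjusted p was 0.0256. By the mean of log2(RPM + 1), which weights its 9 sgRNAs equally, the value was -0.08 (standard error 0.10, limma adjusted p = 0.894). All 8 sgRNAs with at least 100 counts in every day0 library were below 0, from -0.39 (YLQ7204) to -0.02 (YLQ7211). Of these YLQ7207, 60 bp downstream, had the lowest p. It was at 212, 232, 260 and 185 RPM at day0 and at 168, 167, 201 and 184 RPM at day17, a log2FC of -0.29 (standard error 0.11, edgeR adjusted p = 0.485). The ninth sgRNA, YLQ7205, which lies in the EPHA4 window together with YLQ7204, had a value of 1.08 with a standard error of 0.56. It had 13 to 31 counts at day0 and 22, 12, 40 and 103 counts in replicates 1 to 4 at day17, and of these only replicate 4 exceeded 40 counts.

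NR_073063.1, at the EHMT2 and C2 starts, had its lowest values at the sgRNAs nearest to the TSS, which were also low in counts. YLQ1943, between both gene starts, was at 15.01, 13.5, 1.73 and 13.01 RPM at day0 and at 8.82, 5.48, 3.48 and 5.85 RPM at day17. The groups overlapped, because day0 replicate 3 had only 6 counts. YLQ1944, 2 bp downstream of the TSS, was at 8.51, 17.8, 15.8 and 15.6 RPM at day0 and at 8.30, 3.46, 9.58 and 12.6 RPM at day17. The log2FC values were -0.86 (standard error 0.56) and -0.75 (standard error 0.47), with an adjusted p from edgeR of 0.912 and 0.910. The other 3 sgRNAs in the EHMT2 window were YLQ1945 and YLQ1946 with -0.08 and -0.07, from 638 to 967 counts per library at day0, and YLQ1947 with -0.46 from 45 to 79 counts. YLQ1947 was at 19.8, 12.3, 12.96 and 15.6 RPM at day0 and at 11.2, 10.97, 9.58 and 12.0 RPM at day17, so that its groups did not overlap (edgeR adjusted p = 0.973). The median was -0.46 over the 5 sgRNAs inside the EHMT2 window and 0.03 over the 4 outside it, and the 3 lowest of the 5 are also the 3 with the fewest counts. Outside the window, the values ran from -0.36 for YLQ1951, 255 bp downstream, to 0.22. YLQ1951 was the lowest of the target's well-counted sgRNAs (105 to 189 counts at day0, standard error 0.28) and YLQ1950 was the highest at 0.11. Whether the window or the low count goes with the value was not tested. The sum of the target was 798 ± 26 RPM at day0 and 756 ± 15 RPM at day17 (mean ± SD of 4 libraries; log2FC -0.07, edgeR adjusted p = 0.824).

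In XR_430451.1, beside WBP2NL on chromosome 22, the sum was 1338 ± 47 RPM at day0 and 1407 ± 46 RPM at day17 (mean ± SD of 4 libraries). Its log2FC was 0.08 (95% interval 0.0033 to 0.16, edgeR adjusted p = 0.573). YLQ2292 held 42.1% of this target and had a log2FC of 0.16 (standard error 0.06, edgeR adjusted p = 0.582). The median was 0.0041 over the 6 sgRNAs inside the WBP2NL window and 0.06 over the 2 outside it. Among those with at least 100 counts in every day0 library, the lowest was YLQ2296 at -0.09 and the highest YLQ2295 at 0.16.

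NR_033812.1, at the CYP3A5 start, had a sum of 1196 ± 43 RPM at day0 and 1217 ± 24 RPM at day17 (mean ± SD of 4 libraries; log2FC 0.04, edgeR adjusted p = 0.862). YLQ5236, whose site spans the TSS, and YLQ5237, upstream of it, had log2FC values of -0.22 (standard error 0.22) and 0.05 (standard error 0.07). The highest of its well-counted sgRNAs was YLQ5231 at 0.12. An eighth sgRNA, YLQ5234, was not tested. It had 8, 9, 10 and 10 counts at day0 and 3, 0, 0 and 0 counts at day17. Summed over the libraries, 37 counts became 3, a ratio of 0.0875 after scaling to the totals (exact 95% interval 0.0173 to 0.276, counting error only), and each library at 0 allows up to 3 counts. All 4 libraries at day17 were lower than all 4 at day0 (two-sided exact permutation p = 0.0286, the smallest possible), but with these counts the sgRNA did not enter the fit across the library.

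NR_109960.1 (BEAN1-AS1) is antisense to BEAN1, which encodes a membrane protein that binds a ubiquitin ligase. Its sum was 800.2 ± 17.5 RPM at day0 and 809 ± 40 RPM at day17 (mean ± SD of 4 libraries; log2FC 0.03, edgeR adjusted p = 0.909). YLQ3579 at the start site was at 0.15 on the log2 scale and the most abundant sgRNA, YLQ3574, was at -0.10. This was the one RefSeq target with the start of another library target within 5 kb. ENST00000564618.1 starts 535 bp away on the same strand, and its 8 sgRNAs had a median of -0.02 (range -0.36 to 0.13) with none called. The closest sgRNAs of the 2 targets were 408 bp apart.

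NR_037665.1 on chromosome 5 varied least among its well-counted sgRNAs. The 3 with at least 100 counts in every day0 library lay between 0.06 (YLQ2261) and 0.08 (YLQ2256), with standard errors of 0.10 to 0.17. No other RefSeq target had so few well-counted sgRNAs, and fewer values give a smaller range. Over all 7 tested sgRNAs the values ran from -0.03 to 0.40. Its sum was 494 ± 19 RPM at day0 and 517 ± 11 RPM at day17 (mean ± SD of 4 libraries; log2FC 0.08, edgeR adjusted p = 0.830).

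The remaining 5 XR_ targets had sums between -0.06 (XR_429785.1) and 0.07 (XR_430422.1) on the log2 scale, with an adjusted p from edgeR of 0.830 to 0.981. In XR_429785.1 on chromosome 16, YLQ4619 was the lowest at -0.20 (standard error 0.10). YLQ4616 was the highest of the well-counted sgRNAs at 0.14. YLQ4620, with 95 to 154 counts per library at day0, was higher at 0.35 (standard error 0.23, edgeR adjusted p = 0.912). YLQ4619 was lower in all 4 libraries after screening, with 839 to 950 counts at day0 and 677 to 784 at day17, and its adjusted p from edgeR was 0.773. YLQ4618, which shares 9 bases with it (in capitals), was at 0.02.
YLQ4618: ttgggcgccgaCTGCATGCC
YLQ4619: CTGCATGCCgggtgccctca

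In XR_430422.1 on chromosome 22, the lowest and the highest sgRNA, YLQ1430 and YLQ1431, overlap just downstream of the TSS. The site of YLQ1430 spans the TSS and that of YLQ1431 does not. They are shown with their 8 shared bases in capitals.
YLQ1431: aagctgggacagGGCTGCCT
YLQ1430: GGCTGCCTtgggcaaggcca

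YLQ1430 had 160 to 168 counts at day0 and 148, 118, 132 and 103 counts at day17, a log2FC of -0.28 (95% interval -0.72 to 0.16). YLQ1431 had 402 to 514 counts at day0 and 693, 412, 568 and 449 counts at day17, a log2FC of 0.29 (95% interval 0.03 to 0.55). Neither was called, and their intervals overlapped. XR_428236.1 on chromosome 7 ranged from -0.34 (YLQ5576) to 0.21 (YLQ5578) over its well-counted sgRNAs, XR_132801.3 on chromosome 1 from -0.19 (YLQ5458) to 0.17 (YLQ5455), and XR_254376.1 (LOC101929788) from -0.23 (YLQ6366) to 0.17 (YLQ6370). The lowest edgeR adjusted p among these 6 sgRNAs was 0.822, of YLQ6370. YLQ5577 of XR_428236.1 was at -0.26 (standard error 0.12, edgeR adjusted p = 0.775).

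The 2 other sgRNAs that were not tested belong to XR_254376.1. YLQ6363 had 3, 4, 0 and 1 counts at day0 and 4, 0, 0 and 0 at day17. YLQ6369 had 11, 5, 18 and 8 counts at day0 and 0, 0, 1 and 43 at day17. Its sum was 42 counts at day0 and 44 at day17, of which 43 were in replicate 4.

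By position, the median log2FC was -0.09 over 15 tested RefSeq sgRNAs upstream of the TSS, -0.02 over 33 from 0 to 100 bp, 0.02 over 24 further than 100 and up to 200 bp and 0.06 over 21 beyond 200 bp. Over the other targeting sgRNAs these medians were 0.02, 0.02, 0.0003 and 0.01. Sites that span the TSS were placed by their lowest position, so that YLQ2056 counted as upstream and YLQ5236 as 0 to 100 bp. Across sgRNAs, the rho of the fold change with the distance from the TSS was 0.083 for the 93 RefSeq sgRNAs and -0.0062 for the others, both weak. With the sequence on the strand of the transcript (53 sgRNAs) the median was 0.0046, and on the opposite strand (40 sgRNAs) it was 0.0078, where the strand of a sequence was taken as the opposite of the strand column. RefSeq sgRNAs had a median of 11 G or C bases of 20, against 10 for the others. Their median was -0.07 over 29 sgRNAs with 13 or more G or C bases and 0.03 over 22 with 9 or fewer. The SD of single sgRNAs was 0.32 and 0.28 in these groups, and the difference was not tested.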

How the data were processed

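sgRNA cassettes were recovered from genomic DNA by PCR, and the deposited values are raw counts for each sgRNA and library, neither normalized nor pooled by the authors. FastQC 0.11.2, Bowtie and hg38 are named in the submitters' processing notes. By the window search above, the sgRNA positions in the files are not in that build (GRCh38). How reads were assigned is not given in the sources used here. Counts are reads, not molecules, so intervals drawn from counts cover counting error only. Libraries were grouped by the sample titles. No pair of libraries within a group was a copy (chi-square per degree of freedom 4.91 to 11.8). The methods describe 4 independent infections, and p values measure the spread between these libraries.

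sgRNAs were filtered with filterByExpr, with library sizes adjusted by TMM (0.993 to 1.01). The quasi-likelihood test was that of edgeR 4.0.16 (robust fit, R 4.3.3), with Benjamini-Hochberg adjustment over all 6587 tested sgRNAs or 869 targets. The biological coefficient of variation was 0.183 for sgRNAs. Intervals are 1.96 standard errors either way. Alternatives used DESeq2 1.42.0, limma 3.58.1, other scalings and filters, a block for the replicate number, fits without each library in turn, the methods' two-tailed test and other pseudocounts than 1 RPM. The edgeR fits of sgRNAs and targets were tested on simulated counts with known changes. Promoter windows are from RefSeq (GRCh38.p14).

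The members and lists were chosen with earlier results of these data known. All 12 targets are named, with each sgRNA past an adjusted p of 0.05, or past an unadjusted p of 0.05 and 0.58 on the log2 scale, and the lowest and highest per target among those with at least 100 counts in every day0 library. Other sgRNAs were named after their values were seen.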

Additional observations from a re-analysis of the deposited data

Results flagged for a closer look

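Of 80 groups of 4 libraries examined with Dixon's test, 6 held a library far from the other 3, where chance alone gives about 1 in 20. Before screening, replicate 1 was high for YLQ5458 (65.3 RPM, the others 53.3 to 54.4) and for YLQ7204 (47.3 RPM, the others 28.9 to 31.4). After screening, the 3 untested sgRNAs each had 1 library above the others. For YLQ5234 and YLQ6363 any count above 0 would have given this, since their other 3 libraries were at 0, so these do not bear on the number that chance gives. Without them, the flags were about as many as chance gives. The other libraries of YLQ6369 were near 0 as well. YLQ5234 was at 0.778 RPM in replicate 1 and at 0 in the others, YLQ6363 was at 1.04 RPM in replicate 1 and at 0 in the others, and YLQ6369 was at 12.6 RPM in replicate 4 and at 0 to 0.290 in the others. The sum of NR_033812.1 after screening was 1181 RPM in replicate 3, where the others were all at 1229 RPM.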

How the results depend on the processing

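YLQ2055 stayed depleted in every edgeR fit and with DESeq2 (log2 fold change -0.79 to -0.63 with 1 library left out, adjusted p at most 0.0130 there). With the methods' two-tailed test and adjustment over all sgRNAs, which the study's thresholds do not include, no RefSeq sgRNA was depleted (count 0; YLQ2055 -0.70, adjusted p = 0.135). At an unadjusted p under 0.05 and the limit of 0.58 on the log2 scale, an alternative chosen after seeing the data, the same test gave 1 depleted and 0 enriched. The count of enriched sgRNAs was 0, but 1 with the replicate number as a block, through YLQ2060 (log2 fold change 0.19), and 0 to 1 with 1 library left out. The count of lower targets was 0, but 1 with DESeq2 (XR_108432.1, log2 fold change -0.10), and it stayed 0 with 1 library left out.

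The sums of several targets lay so close to 0 that their sign changed. XR_132801.3 was at -0.0028 with total counts, -0.0012 with factors from the non-targeting sgRNAs and -0.0144 with the mean of log2(RPM + 1). By that mean NR_033812.1 was at -0.0779, XR_254376.1 at -0.0283, XR_428236.1 at -0.0319, XR_430422.1 at -0.0505 and XR_430451.1 at -0.0451, all higher by their sums and none called. With 1 library left out, the ranges that crossed 0 were -0.0139 to 0.0237 for XR_132801.3, -0.0181 to 0.0274 for XR_242004.1, -0.0131 to 0.0912 for XR_254376.1, -0.0086 to 0.0627 for XR_428236.1, -0.0341 to 0.317 for YLQ2295, -0.135 to 0.413 for YLQ5578 and -0.0766 to 0.0418 for YLQ7211. Of the 36 sgRNAs and targets followed in these fits, 7 crossed 0, 21 kept their sign but moved by over 1.5 times in at least 1 fit, and 8 moved less. Among the 21 were YLQ7204 (-0.610 to -0.199), YLQ6366 (-0.541 to -0.0524), YLQ4616 (0.0080 to 0.222), YLQ5231 (0.0279 to 0.220) and XR_430422.1 (0.0081 to 0.142), none of them called. The median over RefSeq sgRNAs ranged from -0.0379 (without day17 replicate 1) to 0.0147 in those fits.

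Replicate numbers were not taken as pairs. Same-numbered libraries deviated together weakly, but for every number (correlation 0.0785 to 0.108 over 4513 sgRNAs). Each library correlated best with its own number, and all correlations with other numbers were below 0 (-0.0661 to -0.0081). Deviations were taken from the mean of each group, so the values below 0 follow in part from the positive ones and add little. All tests other than the block, the exact permutation tests included, took the libraries as unpaired and left this link out. Apart from YLQ2060 the replicate block changed no call among the values named here. Depth limits the sgRNAs with under 100 counts, whose median standard error was 0.39 against 0.12 for the others.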
